A study of Mus musculus with 6 samples.

Results

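The genes described here encode the proteins of the cytosolic ribosome. They are the protein-coding rows of the count table whose symbol starts with Rpl or Rps and a digit, together with Rplp0, Rplp1, Rplp2 and Rpsa, without the kinases named Rps6k or Rps6kl, without Rps19bp1 and without symbols that carry -ps. The rule gave 85 of the 51789 rows: 33 small-subunit genes, 49 large-subunit genes and 3 genes of the P stalk. Of these, 77 are the standard genes and 8 are close relatives or retrocopies of another member (Rpl3l, Rpl7l1, Rpl10l, Rpl22l1, Rpl36al, Rpl39l, Rps27l and Rps27rt). The study sequenced polyadenylated RNA of mouse bone marrow neutrophils that had been taken with Ly6G beads, at a purity stated to exceed 95%. There were 6 libraries, 3 labelled WT (control) and 3 labelled KO for Snph, the gene of the mitochondrial anchor protein syntaphilin. Lexogen QuantSeq libraries yield tags near the 3′ end of each transcript, so a count stands for tags and is not divided by gene length. The sources used here do not give the strain, age or sex of the animals, any treatment, the deleted part of Snph, or whether samples came from separate animals. The p-values thus reflect the spread of these 6 samples, and that spread may be technical.

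A ribosome has a small subunit, which reads the messenger RNA, and a large subunit, which joins amino acids and lets the new chain out through a tunnel. Each subunit is built on ribosomal RNA in the nucleolus and its own set of proteins, and the P stalk of the large subunit recruits the elongation factors. Messenger RNAs of ribosomal proteins begin with a run of pyrimidines, the TOP motif, through which mTORC1 and Larp1 control their translation. Neutrophil precursors divide and make granule proteins in the marrow, and ribosome production is known to fall as they mature.

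Snph itself went against the group names. No WT-labelled library had a count (0 in each), while KO 1, KO 2 and KO 3 had 5, 2 and 8 counts, so the groups are called WT-labelled and KO-labelled below, and every direction rests on the labels as they stand. A 3′ tag that lies outside the deleted part would check nothing, and that part is not known here. Library totals ran from 7018388 to 9664381 counts. The neutrophil genes S100a8 and S100a9 alone took 21.8% to 22.8% of the counts of WT-labelled and 23.4% to 24.6% of KO-labelled libraries. Markers of other cells were present at low summed levels and differed between the groups by edgeR's quasi-likelihood test with Benjamini-Hochberg adjustment: 9 of 9 macrophage genes fell (summed 1004 to 1086 CPM against 463 to 571 CPM), 4 of 5 tested platelet genes fell (132 to 165 against 62.6 to 91.3 CPM) and 3 of 6 tested plasma cell genes rose (378 to 429 against 583 to 1355 CPM). Of the mature neutrophil genes 3 of 10 rose (233600 to 253900 against 272700 to 290000 CPM), and none of the 15 genes of dividing cells and promyelocytes passed (204 to 262 against 195 to 246 CPM). No immature neutrophil gene of 7 passed, with a sum higher in every KO-labelled library (57360 to 58140 against 60000 to 64460 CPM), and no B cell gene of 7 tested passed, with a sum lower in every one (55.3 to 76.6 against 38.7 to 46.5 CPM). No gene passed among monocyte, erythroid and T and NK cell markers, whose sums overlapped between the groups. Of all 10397 tested genes, 0.24% passed with the KO-labelled libraries higher and 0.789% with them lower. A short list without a call is therefore near the share of all genes. No gene of these lists was at 0 in all libraries. The part of these cells in the ribosomal protein values was not tested, and in bulk RNA fewer cells of a type and less RNA per cell cannot be told apart.

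The starts of abundant members are shown for their pyrimidine runs, the feature that TOP messenger RNAs are named for. Each line gives 30 bases on the gene's strand, 5′ to 3′, from 20 bases before the RefSeq transcript start (build GRCm38.p6) to the first 10 transcribed bases, with the longest run of at least 5 C or T in capitals. The 5 genes shown are among the 8 most abundant members.
Rps9, chr7:3704021-3704050, plus strand: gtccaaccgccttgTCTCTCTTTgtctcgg
Rpl37, chr15:5116593-5116622, plus strand: gaagtagTTTCCTgggcggaagcttatcca
Rps16, chr7:28350669-28350698, plus strand: taaagcccgCTTCTgtcgtgacgtagcact
Rpl41, chr10:128549159-128549188, minus strand: gacgacacacgggccggctcggaagtgacg
Rps25, chr9:44407694-44407723, plus strand: TCCTTTTTTTCCgacatcttagcgaggctg
The run crosses the annotated start in Rps9, lies before it in Rpl37, Rps16 and Rps25, and is missing from this window in Rpl41. A wider window, from 20 bases before to 50 bases after the start, held a run of 10 in Rpl41 and of 11 in Rpl37.

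Among the 65 members with a RefSeq window, 75.4% held a run of at least 8 C or T on the gene's strand between 20 bases before and 50 bases after the start, against 28.5% of all 27025 genes with a window of the same length and 27.8% of those tested here. A C at the start itself, followed by at least 4 C or T, was present in 21.5% of members against 3.01% of all genes. In the whole 300 bases (250 before to 50 after the start), CCGGAAG, read on either strand and free to overlap other motifs, stood in 26 of the 65 members, in 9.93% of all genes and in 22.5% of tested genes. CTTTCC on either strand stood in 53.8% of members and 29.3% of all genes. These matches describe the sequences and are not binding sites.

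A second set of sequences bears on what a count of a member means, because many members have near-identical copies elsewhere in the genome. The first 3 sequences below are the last 60 coding bases, stop codon in capitals, from GENCODE vM21 transcripts on GRCm38, and each stands for both genes of a pair because they were identical there. The last 4 lines give 60 coding bases of 2 pairs that differ, with the differing base in capitals.
Rpl10 (chrX:74270812-74273135) and Rpl10-ps3 (chr9:50344201-50344968): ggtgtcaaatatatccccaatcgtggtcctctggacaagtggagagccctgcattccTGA
Rpl12 (chr2:32961559-32965345) and Gm10275 (chr10:29698746-29699380): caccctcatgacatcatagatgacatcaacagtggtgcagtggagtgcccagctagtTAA
Rps27 (chr3:90212522-90213651) and Rps27rt (chr9:114982366-114982739): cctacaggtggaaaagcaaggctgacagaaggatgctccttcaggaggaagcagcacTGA
Rpl35: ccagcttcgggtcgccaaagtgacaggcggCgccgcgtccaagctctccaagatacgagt
Gm2000 (chr1:156366040-156366484): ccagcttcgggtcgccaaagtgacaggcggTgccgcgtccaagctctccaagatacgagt
Rpl23a (chr11:78180932-78183584): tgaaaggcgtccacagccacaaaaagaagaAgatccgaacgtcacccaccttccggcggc
Rpl23a-ps3 (chr14:34170655-34171122): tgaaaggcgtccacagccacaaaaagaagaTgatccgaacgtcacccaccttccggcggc
Rpl10 and its copy were identical over all 645 coding bases, Rpl12 and Gm10275 over 498, and Rps27 and Rps27rt over 255. Rpl35 and Gm2000 had 1 mismatch in 372 aligned bases, and Rpl23a and Rpl23a-ps3 had 1 mismatch in 468. The mismatch is at coding position 117 of 372 in Rpl35 and 116 of 471 in Rpl23a, far from the stop codon. Bases past the stop codon were not aligned. The tags lie near the 3′ end, so whether these mismatches fall within tags is not known.

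Most ribosomal protein transcripts were abundant in these neutrophils, at unequal levels. Levels are counts per 1000000 counts (CPM) scaled by TMM factors. The median member stood at 214.5 CPM, against 13.76 CPM for all 10397 genes that passed the filter on low counts, and 66 members were among the 1000 most abundant genes. Between 100 and 300 CPM lay 45 members, and the 8 most abundant held 29.3% of all member counts. The filter passed 83 members. The other two were Rpl10l, a testis relative of Rpl10 with 0 counts in all 6 libraries, and Rpl39l, a testis relative of Rpl39 with 0, 2 and 1 counts in WT 1 to 3 and 0, 4 and 0 in KO 1 to 3.

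**Figure D1:**
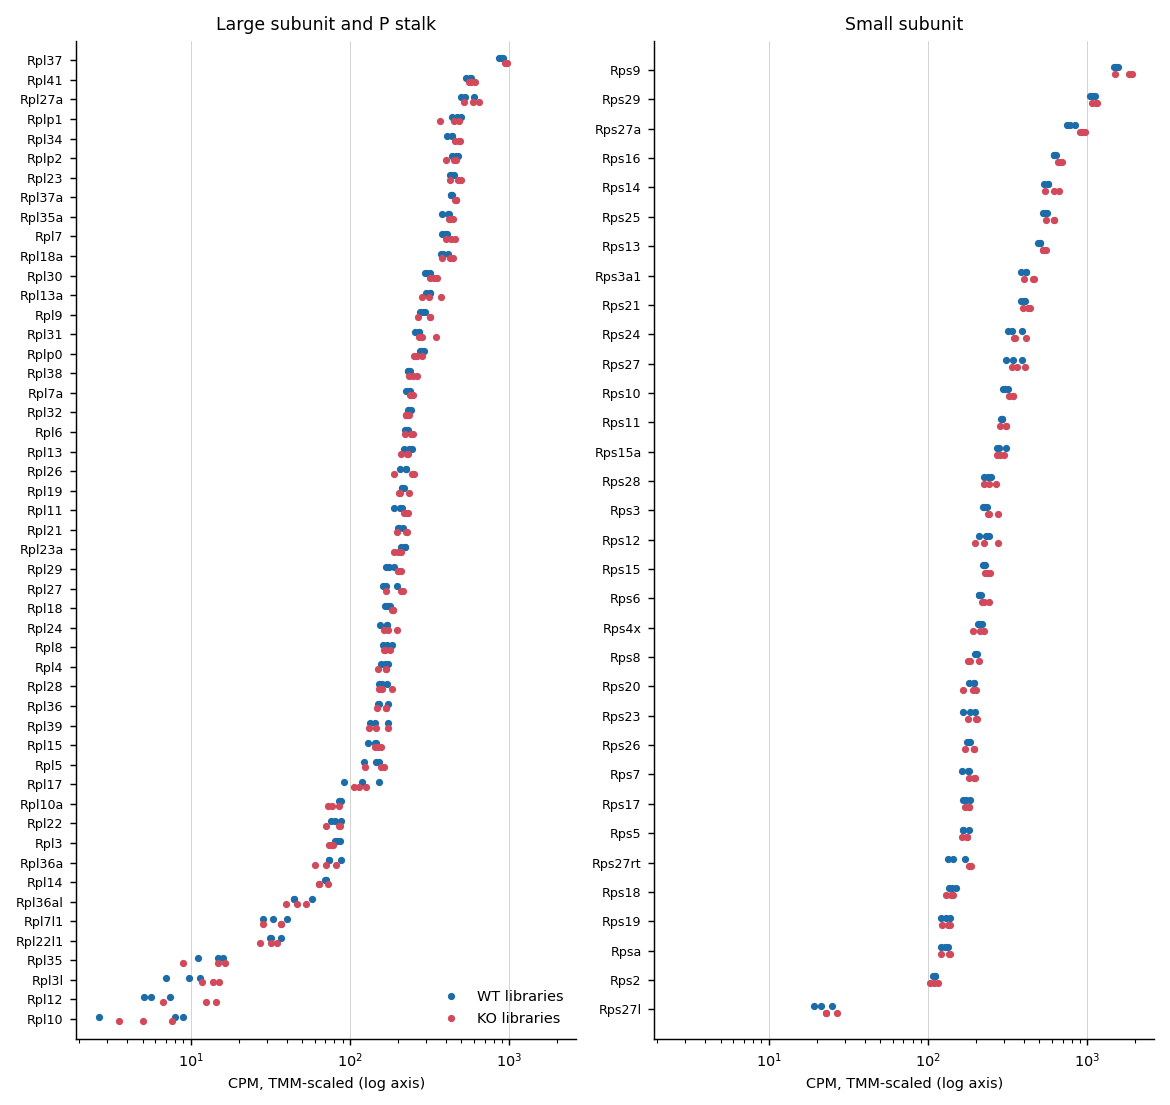
Level of each tested ribosomal protein gene in each library, in TMM-scaled CPM on a log axis, with large-subunit and P stalk genes on the left and small-subunit genes on the right. Each point is 1 library (blue, 3 WT-labelled; red, 3 KO-labelled); most genes lie between 100 and 600 CPM, Rps9 stands highest, and Rpl10, Rpl12, Rpl3l and Rpl35 lie lowest.

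Rps9, a protein of the decoding side of the small subunit, was the most abundant member. Its levels were 1550, 1525 and 1478 CPM in WT 1 to 3 and 1830, 1899 and 1494 CPM in KO 1 to 3. KO 1 and KO 2 were above every WT-labelled library, while KO 3 lay among them, so the groups overlapped. Rps29, a zinc-binding protein of the small subunit, followed, with a mean of 1076 ± 36.9 CPM for the WT label and 1119 ± 47.3 CPM for the KO label (SD, n = 3 each, in this order below). Rpl37, a zinc-binding protein of the large subunit, stood at 892 ± 24.1 and 956 ± 15.1 CPM (SD, n = 3 each). Its lowest KO-labelled library, at 940 CPM, was above its highest WT-labelled one, at 916 CPM.

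Rps27a is made as a fusion of ubiquitin with a small-subunit protein, which is then cleaved. Its levels were 779, 743 and 836 CPM in WT 1 to 3 and 969, 925 and 895 CPM in KO 1 to 3, with every KO-labelled library above every WT-labelled one. Rps16, whose tail reaches the tRNA in the P site, stood at 624 ± 11.5 and 672 ± 20.4 CPM (SD, n = 3 each), also without overlap. Rps14, a protein of the small subunit's platform known for its part in a human marrow failure, stood at 556 ± 19.6 and 608 ± 61.5 CPM (SD, n = 3 each). KO 3, at 541 CPM, lay within the WT-labelled range of Rps14. Rpl41, the shortest ribosomal protein, stood at 561 ± 19.4 and 583 ± 25.5 CPM, and Rps25, which internal ribosome entry sites need, at 544 ± 13.8 and 595 ± 38.1 CPM (SD, n = 3 each).

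Libraries differed little for most members. The median coefficient of variation over all 6 libraries was 6.71%. In the band from 100 to 600 CPM it was 6.39% for the 65 members and 7.64% for all 1189 genes. Rpl32 varied least, at 2.74%, and Rpl12 most among tested members, at 45.0%, followed by Rpl10 at 43.5%. These extremes were named after their values were seen.

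The paralogs stood below the genes they resemble in these libraries, by very different margins. Rpl22l1, a relative of Rpl22, stood at 33.4 ± 3.0 and 31.3 ± 3.7 CPM against 81.7 ± 5.9 and 80.9 ± 8.7 CPM for Rpl22 (SD, n = 3 each). Rpl7l1, a relative of Rpl7 that works in subunit assembly, stood at 33.8 ± 6.0 and 34.2 ± 4.9 CPM against 394 ± 12.8 and 431 ± 29.1 CPM for Rpl7. Rps27l, a relative of Rps27 known as a p53 target, stood at 21.8 ± 2.8 and 24.2 ± 2.1 CPM. Rpl3l, known as the striated muscle form of Rpl3, was read at 9.4 ± 2.2 and 13.5 ± 1.6 CPM against 83.7 ± 3.2 and 76.6 ± 2.3 CPM for Rpl3. The pair of Rpl36al and Rpl36a was close, at 48.7 ± 7.6 and 46.5 ± 6.6 CPM against 78.7 ± 8.5 and 70.8 ± 10.8 CPM. The retrocopy Rps27rt stood high, at 149 ± 19.2 and 184 ± 2.9 CPM, beside 346 ± 42.4 and 369 ± 35.4 CPM for Rps27 (SD, n = 3 each). Because their coding sequences are identical, the counting could have split reads between them. Their bases past the stop codon were not aligned.

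The comparison of KO-labelled with WT-labelled libraries asks whether ribosomal protein transcripts differ between the groups. No member passed an adjusted p of 0.05 (edgeR quasi-likelihood test, Benjamini-Hochberg over 10397 genes), where 1.03% of all tested genes did. At an unadjusted p under 0.05 stood 6 members, or 7.23%, against 11.4% of all tested genes. DESeq2 called 1 member, Rps27a (adjusted p = 0.0166), where it called 1.33% of all genes. limma-voom called none. The smallest adjusted p in the edgeR test was 0.163, for Rps27a.

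Most values were small and above 0. The log2 fold change (KO-labelled minus WT-labelled) was above 0 for 59 tested members and below 0 for 24, with a median of 0.06, beside a median of 0.01 over all tested genes. Under scaling to total counts alone, the median of all genes moved to -0.10, that of the members to -0.04, and only 24 members were above 0. The distance between both medians was 0.06 under either scaling, but scaling moves all genes by nearly the same amount and could hardly change it. Other settings did change it: 0.04 with the filter of 5 CPM and 0.08 with DESeq2. Without KO 2 it was 0.04, and without KO 3 it was 0.09. The middle of the distribution was narrow, with quartiles at -0.01 and 0.11 for members and at -0.18 and 0.14 for all tested genes.

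Under TMM scaling, the size of a difference between these libraries was limited for most members. The 95% interval of the fold change lay within 1.3-fold in either direction for 74 of the 83 tested members and within 1.5-fold for 80. The exceptions to the wider bound were Rpl3l, Rpl12 and Rpl10, the 3 lowest tested members. These intervals take no account of the choice of scaling, and total-count scaling moved the members' median log2 fold change from 0.06 to -0.04. Groups did not overlap for 20 members, 24.1% of those tested, 18 of them with the KO-labelled libraries higher, where 16.8% of all tested genes did not overlap 7.48% with the KO-labelled libraries higher and 9.32% with them lower.

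**Figure D2:**
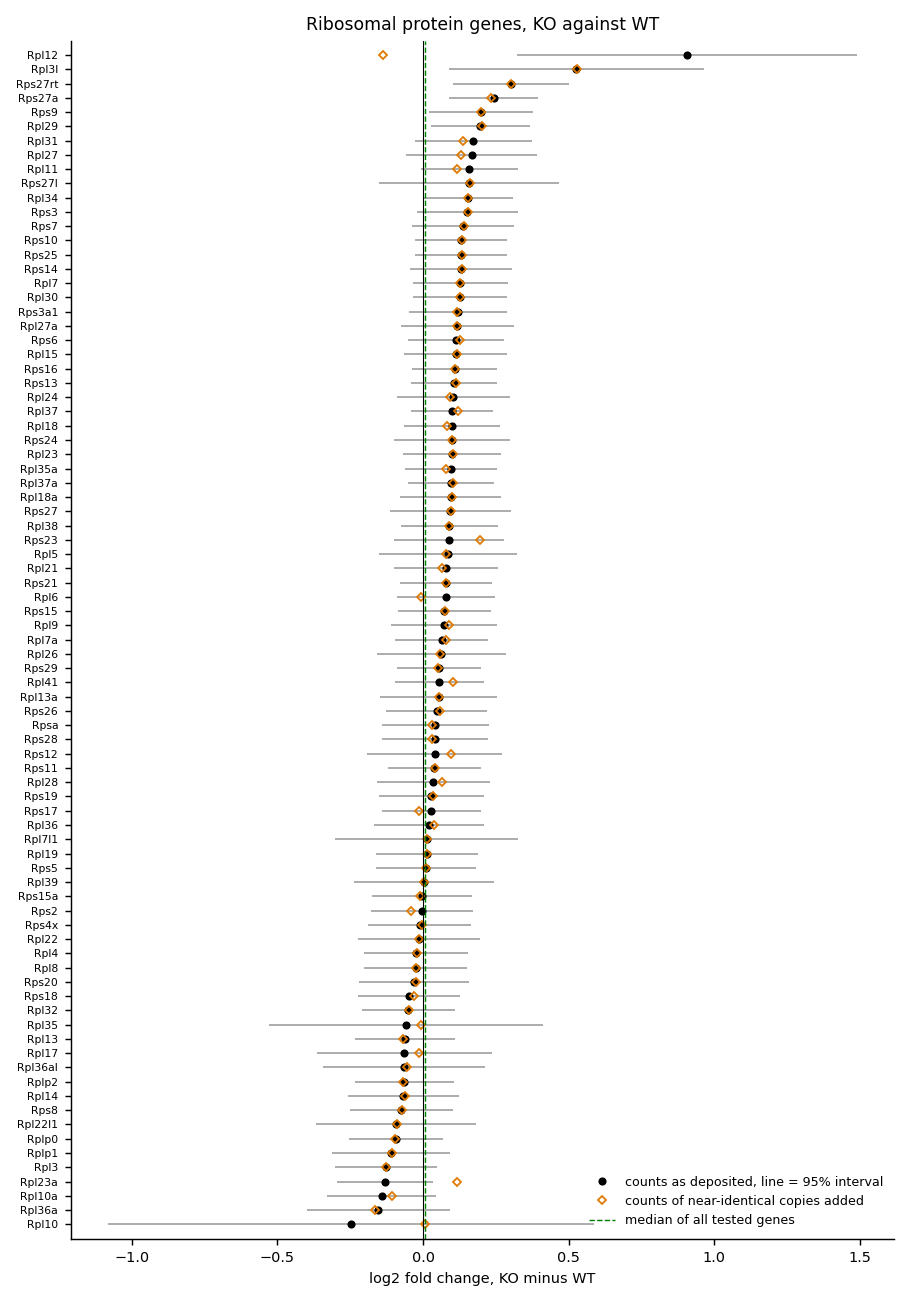
Log2 fold change of each tested ribosomal protein gene, KO-labelled minus WT-labelled libraries (n = 3 each). Black points are edgeR estimates with a line for the 95% interval, open orange diamonds are the estimates after counts of near-identical copies were added to each gene, and the dashed line is the median of all tested genes; most points lie just above 0, and Rpl12 moves from 0.91 to -0.14 when its copies are added.

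Of the small-subunit genes, 27 of 33 were above 0, with a median of 0.08. After the retrocopy Rps27rt, Rps27a was highest, with a log2 fold change of 0.24 (SE 0.07, edgeR adjusted p = 0.163). Rps9 had 0.20 (SE 0.08, edgeR adjusted p = 0.377), with 0.13 without KO 2 and 0.29 without KO 3. Rps27rt had 0.30 (SE 0.09, edgeR adjusted p = 0.182), with 170, 144 and 133 CPM in WT 1 to 3, and 183, 187 and 181 CPM in KO 1 to 3. The groups did not overlap for Rps27rt, but Rps27, its source, had 0.09 (SE 0.10) with overlapping groups and ranged from 0.01 without KO 3 to 0.19 without WT 3. Rpsa, the small-subunit protein also known as the laminin receptor, had 0.04 (SE 0.09), and Rps4x, an X-linked small-subunit gene, had -0.01 (SE 0.08).

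Of the large-subunit genes, 32 of 47 tested were above 0, with a median of 0.06. Rpl29, a basic large-subunit protein, had a log2 fold change of 0.20 (SE 0.08, edgeR adjusted p = 0.354). Its levels were 168, 176 and 188 CPM in WT 1 to 3 and 201, 210 and 199 CPM in KO 1 to 3, without overlap. Rpl31, which lies by the exit of the tunnel, had 0.17 (SE 0.09), with 271, 272 and 257 CPM in WT 1 to 3 and 271, 349 and 284 CPM in KO 1 to 3. KO 2 stood apart, and without it the value was 0.05. Its exons share 420 bases with Tbc1d8 on the opposite strand, which had 4726 counts in all beside 13707 for Rpl31. The strand setting of the counting is not given. Such overlaps are not particular to Rpl31: Rps25 shares 462 bases with Trappc4 (3150 counts beside 27504), and Rpl35 shares 62 with Arpc5l (1346 beside 676). Near-identical copies held 26.4% of the counts of Rpl31 and its copies, and with them added its value was 0.14. Rpl3l had 0.53 (SE 0.21, edgeR adjusted p = 0.329; 0.35 without WT 2), with 11.4, 7.1 and 9.8 CPM in WT 1 to 3, and 11.9, 15 and 13.7 CPM in KO 1 to 3.

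The 6 lowest values at a mean of at least 10 CPM came from the large subunit and the P stalk. Rpl36a, which contacts the tRNA at the E site, had -0.15 (SE 0.11), which became -0.05 without KO 3, -0.06 without WT 3 and -0.27 without KO 1. Rpl10a, the protein of the L1 stalk that releases the tRNA, had -0.14 (SE 0.09), and -0.09 without KO 2. Rpl3, which reaches the peptidyl transferase centre, had -0.13 (SE 0.08). Its levels were 87.2, 81.0 and 82.7 CPM in WT 1 to 3 and 77.1, 78.7 and 74.1 CPM in KO 1 to 3, so every KO-labelled library was lower. Rpl23a, a docking site for factors at the tunnel exit, had -0.13 (SE 0.08), again with every KO-labelled library lower.

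All 3 P stalk genes had values below 0 under every scaling run, but the size rested on KO 3 for Rplp1 and Rplp2. Rplp0, the base of the stalk, had a log2 fold change of -0.09 (SE 0.08), Rplp1 had -0.11 (SE 0.10) and Rplp2 had -0.07 (SE 0.08), with edgeR adjusted p of 0.726, 0.743 and 0.835. For Rplp1, the levels were 472, 440 and 497 CPM in WT 1 to 3 and 485, 451 and 370 CPM in KO 1 to 3. KO 3 was the lowest library and the groups overlapped, as they did for the other two genes. Without KO 3, the log2 fold change was -0.0093 for Rplp1, -0.0043 for Rplp2 and -0.09 for Rplp0.

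Summed over all 85 genes, the share of the library differed by less than the spread between replicates. Members took 2.36%, 2.26% and 2.45% of counts in WT 1 to 3 and 2.37%, 2.36% and 2.24% in KO 1 to 3. The means were 2.36% ± 0.09 and 2.32% ± 0.07 (SD, n = 3 each). On the TMM scale, the sums were 22860, 22359 and 23178 CPM in WT 1 to 3 and 24597, 24889 and 22905 CPM in KO 1 to 3. KO 1 and KO 2 were above the WT-labelled libraries on this scale, and KO 3 lay within their range. The median member's log2 level, relative to its own mean over the 6 libraries, was -0.02, -0.06 and -0.002 in WT 1 to 3 and 0.06, 0.08 and -0.04 in KO 1 to 3, so KO 3 again stood with the WT-labelled libraries. The median log2 fold change of members was 0.05 without KO 1, 0.04 without KO 2 and 0.09 without KO 3, and 0.06 to 0.08 with any WT-labelled library left out.

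The balance of small-subunit to large-subunit counts, which no scaling can move, separated the groups by a narrow margin. Small-subunit counts divided by large-subunit counts, P stalk included, gave 0.977, 0.989 and 0.965 in WT 1 to 3 and 1.018, 1.014 and 1.003 in KO 1 to 3. The ratio was higher in each KO-labelled library than in any WT-labelled one, with means of 1.012 ± 0.008 and 0.977 ± 0.012 (SD, n = 3 each). Without Rps9, which holds the largest share of small-subunit counts, the ratios were 0.843, 0.853 and 0.840 against 0.868, 0.861 and 0.872, still apart. Without both Rps9 and Rps27a the groups overlapped, at 0.776, 0.787 and 0.769 against 0.789, 0.786 and 0.794. Without the P stalk, the highest WT-labelled ratio and the lowest KO-labelled ratio were both 1.102. Rps27a and Rps9 had the highest log2 fold changes of the standard small-subunit genes (0.24 and 0.20), and the P stalk genes were all below 0. Leaving them out therefore had to narrow the gap, so these versions do not trace the separation to particular genes.

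**Figure D3:**
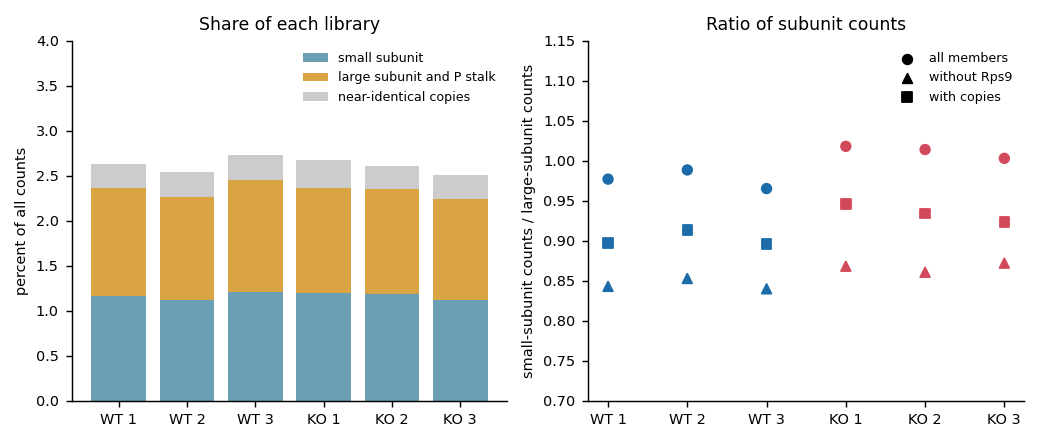
Left, bars of the percent of all counts in each library that fell in small-subunit genes, in large-subunit and P stalk genes and in near-identical copies; members alone reach 2.24% to 2.45%. Right, counts of small-subunit genes divided by counts of large-subunit genes in each library (blue, WT-labelled; red, KO-labelled; axis from 0.70), with all members as circles, without Rps9 as triangles and with copies added as squares; in each of these versions the 3 KO-labelled points lie above the 3 WT-labelled points.

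Near-identical copies held a large part of the counts of a few members. A copy was a gene whose transcript shared at least 100 stretches of 50 bases with a member's transcript. Genes that are members themselves or overlap the member's locus were left out. Rps27rt, a member, was therefore not taken as a copy of Rps27, and the counts of this pair were not summed. There were 387 copies for 70 members, 375 of them annotated as pseudogenes, and 293 had counts. Together they held 135359 counts beside 1134148 for the members, or 10.7% of the sum, and the 10 largest copies held 65.8% of the copies' counts. The median member had 1.61% of the counts of itself and its copies in the copies, and 62 members had under 5% there.

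For 6 members the copies held over 50%: Rpl10 (98.2%), Rpl35 (90.2%), Rpl12 (88.7%), Rps23 (62.5%), Rpl23a (56.3%) and Rps12 (53.3%). Rpl10, one of the last proteins to join the large subunit, had 284 counts over the 6 libraries, while Rpl10-ps3, the copy printed above, had 15522. Rpl35, a protein at the tunnel exit, had 676 counts against 6179 for Gm2000. Rpl12, a protein of the stalk base, had 416 against 3214 for Gm10275. With copies added, Rpl10 stood at 324.8 and 326.5 CPM in the WT-labelled and KO-labelled libraries and Rpl35 at 142 and 141 CPM, within the range of the other members. The low places of these genes in the plot of levels by library are therefore those of the deposited rows.

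**Figure D4:**
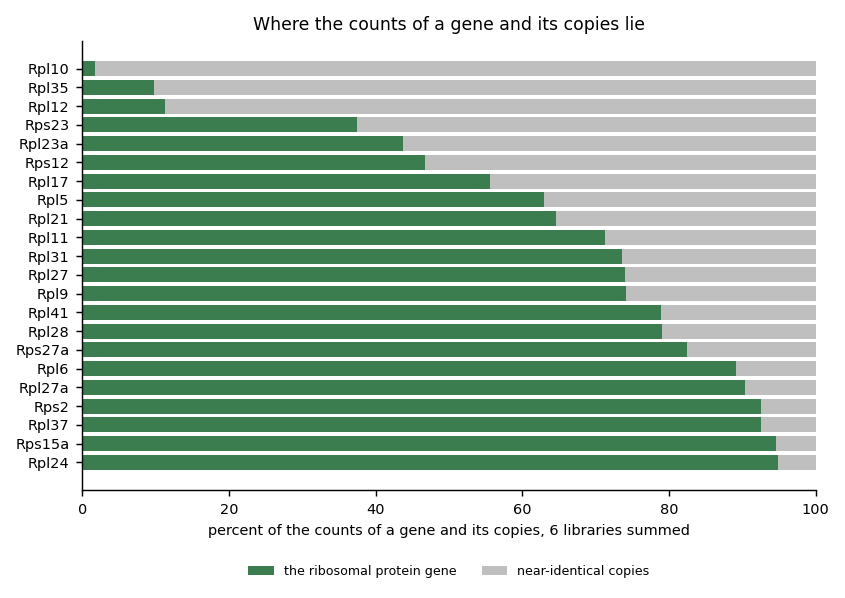
Percent of the counts of a gene and its near-identical copies that the deposited table gave to the ribosomal protein gene (green) and to the copies (grey), summed over 6 libraries, for each member with over 5% in copies. Rpl10, Rpl35 and Rpl12 have most counts in copies, and from Rpl17 downward the gene itself holds the larger part.

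The copies also changed the comparison for the genes that depend on them. Rpl12 had the largest log2 fold change of all members, 0.91 (SE 0.27, edgeR adjusted p = 0.171), with 5.6, 5.1 and 7.4 CPM in WT 1 to 3, and 6.7, 12.5 and 14.5 CPM in KO 1 to 3. KO 1 lay within the WT-labelled range. Without KO 1 the gene was called (log2 fold change 1.17, edgeR adjusted p = 0.0339, where 0.623% of genes were called), and with no filter on low counts it was called too (adjusted p = 0.0143, where 1.46% were). With copies added, the value was -0.14 (SE 0.09, edgeR adjusted p = 0.612). Rpl12 also shares 56 exon bases with Lrsam1 on the opposite strand, which had 462 counts in all.

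Rpl23a and its copy differed in sign. The gene had 221, 210 and 222 CPM in WT 1 to 3 and 208, 189 and 200 CPM in KO 1 to 3, while Rpl23a-ps3 stood at 239 ± 2.9 and 296 ± 20.4 CPM (SD, n = 3 each), with a log2 fold change of 0.31 (SE 0.08, edgeR adjusted p = 0.0867). Summed, they had 0.12 (SE 0.07, edgeR adjusted p = 0.598). Rpl10 moved from -0.25 (SE 0.39) to 0.01 (SE 0.07) when its copies were added. Rps27a, the member that DESeq2 called, had 17.5% of the counts of itself and its copies in the copies. With copies added its log2 fold change was 0.23 (SE 0.08, edgeR adjusted p = 0.218), and DESeq2 was not run on these sums. Of 95 copies tested, none passed the edgeR threshold, where 1.03% of all tested genes did. Above 0 were 56 of them, and their median was 0.07. The copies are not all separate measurements: Gm10240 and Gm13370, both copies of Rpl21, had the same counts in every library. With copies added, no member passed either, 58 were above 0, and the ratio of small-subunit to large-subunit counts was 0.897, 0.914 and 0.896 in WT 1 to 3 and 0.946, 0.934 and 0.924 in KO 1 to 3, without overlap.

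Other genes of ribosome production and of translation were read from 8 lists. No gene of any of these lists passed the edgeR threshold, where 1.03% of all tested genes did. Most assembly factors had values below 0. Of 52 tested genes of ribosome assembly and ribosomal RNA processing, 38 were below 0, with a median of -0.14, beside 24 of 83 members below 0. All tested genes had a median of 0.01 and quartiles at -0.18 and 0.14, so the list's median lay between the all-gene quartiles. The genes with the smallest p were Nop2, an RNA methyltransferase of the nucleolus, at -0.76 (SE 0.23, edgeR adjusted p = 0.174), and Nop58, a core protein of methylation guides, at -0.78 (SE 0.27, edgeR adjusted p = 0.262). Both had means below 10 CPM. Summed over the list, WT-labelled libraries held 551 to 581 CPM and KO-labelled ones 491 to 545 CPM. RNA polymerase I and its factors had 11 of 16 above 0 and a median of 0.04, with Polr1c at -0.36 (SE 0.21) and Polr2f at -0.24 (SE 0.19).

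**Figure D5:**
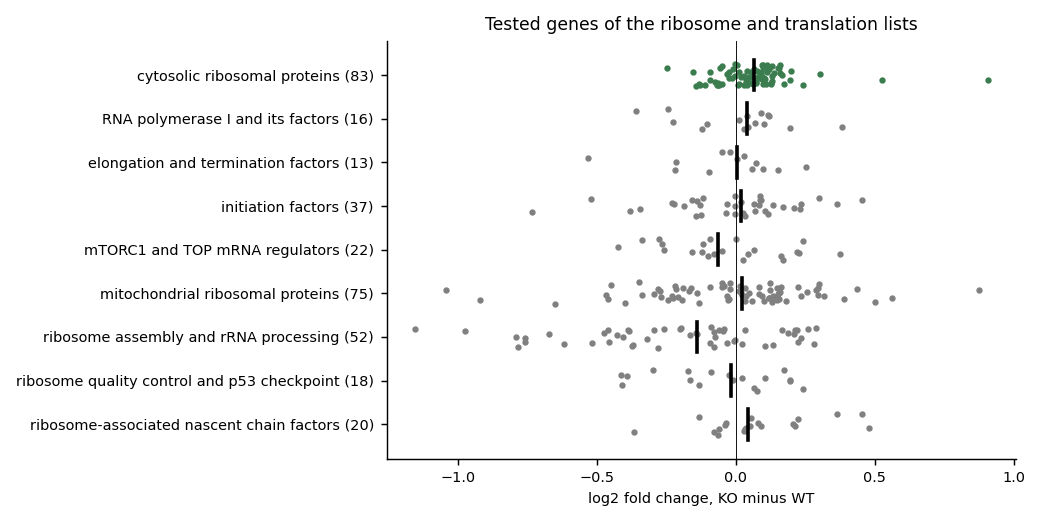
Log2 fold change, KO-labelled minus WT-labelled libraries, of each tested gene (points) in the ribosomal protein genes (green) and 8 further lists (grey), with the number of tested genes in brackets and a black bar at the list's median. The ribosomal proteins cluster closely around 0.06, and the assembly list has its median at -0.14.

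The translation factors were spread around 0. Initiation factors had a median of 0.02 over 37 genes, and their smallest p belonged to Eif5b, which joins the subunits, at -0.38 (SE 0.10, edgeR adjusted p = 0.121), and to the eIF3 subunit Eif3k at 0.30 (SE 0.09, edgeR adjusted p = 0.161). Elongation and termination factors had a median of 0.01 over 13 genes, with Tpt1, itself a TOP messenger RNA, at 0.15 (SE 0.06) and the release factor Gspt1 at -0.53 (SE 0.27). The regulators of mTORC1 and TOP messenger RNAs had a median of -0.07 over 22 genes, while their summed level was higher in every KO-labelled library (2519 to 2632 against 2757 to 2877 CPM). Eif4ebp1, the cap-binding inhibitor that mTORC1 phosphorylates, stood at 84.8 ± 6.6 and 110 ± 9.4 CPM (SD, n = 3 each; log2 fold change 0.37, SE 0.09, edgeR adjusted p = 0.0813), and Mxd1, a Myc antagonist, had 0.22 (SE 0.07, edgeR adjusted p = 0.194).

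Quality control factors had a median of -0.02 over 18 genes, with the ubiquitin ligase Ltn1 at -0.41 (SE 0.16) and Gcn1l1, a sensor of collided ribosomes, at -0.41 (SE 0.16). Factors that meet the nascent chain had a median of 0.04 over 20 genes, with Srp14, of the signal recognition particle, at 0.21 (SE 0.08) and the chaperone Hspa14 at 0.37 (SE 0.15). The proteins of the mitochondrial ribosome, a separate machine, had 41 of 75 above 0 and a median of 0.02. Their summed level was 1307 to 1374 CPM in WT-labelled and 1394 to 1465 CPM in KO-labelled libraries, without overlap. Of the other lists, the summed levels overlapped for initiation (3678 to 3827 against 3719 to 3856 CPM), elongation (2652 to 2781 against 2765 to 2833 CPM), RNA polymerase I (403 to 409 against 398 to 430 CPM), quality control (769 to 786 against 772 to 785 CPM) and nascent chain factors (904 to 961 against 947 to 980 CPM). Mrps18c had the smallest p of the mitochondrial list, at 0.44 (SE 0.10, edgeR adjusted p = 0.0676), followed by Mrpl16 at -0.92 (SE 0.30, edgeR adjusted p = 0.211).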

How the data were processed

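The authors deposited raw read counts for each Ensembl gene, as whole numbers. Per the submitters' processing notes, RSEM 1.2.3, DESeq2 and the build mm10 were used, in roles not stated. Aligner, annotation and strand setting: not given in the sources used here. Columns were matched to samples by name. Names, exons and coding sequences came from GENCODE vM21 (GRCm38); the 193 rows without a name held 0.00812% of counts.

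The test was edgeR's quasi-likelihood test (version 4.0.16, R 4.3.3; glmQLFit and glmQLFTest; TMM factors; filterByExpr, minimum count 10 and total 15; Benjamini-Hochberg over 10397 genes; threshold 0.05), with the group as the one term. A standard error is the fold change divided by the root of the F statistic. For replicate pairs within a group, chi-square per degree of freedom was 4.31 to 7.40, so none agreed within sampling noise. On counts simulated for 10397 genes, the test on KO against WT recovered 56%, 78% and 96% of genes raised 1.5-fold, 2-fold and 3-fold, and 58% of genes lowered to 0.5 of their level. The changed genes were drawn at random from all tested genes, whose median was 13.76 CPM. These rates are thus not those of the members, whose median was 214.5 CPM. Alternatives were DESeq2 1.42.0, limma-voom (limma 3.58.1), other scaling, other filters, a replicate block, other thresholds and each library left out.

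The members and gene lists were chosen with earlier results of these data known, and adding copies was chosen after seeing the data. Named members were the 8 most abundant, the 6 highest and 6 lowest fold changes at 10 CPM or more, the P stalk, Rpsa, paralog pairs, the 3 lowest tested and the untested; of each pathway list, the 2 genes with the smallest p. Other named genes, the members with most counts in copies among them, were chosen after their values were seen. Cell type lists are given as counts. Sequences were read from RefSeq windows and GENCODE transcripts; 20 members had no window. A short list of further ribosomal constituents, and the alternative that added it to the members' share, are not reported here.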

Additional observations from a re-analysis of the deposited data

How the results depend on the processing

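The number of members called was 0 except with DESeq2 (1), with no filter (1) and without KO 1 (1), so leaving out single libraries gave 0 to 1. All genes called numbered 107, against 162 with total-count scaling, 287 with no filter, 182 and 46 at thresholds of 0.1 and 0.01, and 49 to 97 without single libraries. The median member log2 fold change was 0.06 and became -0.040 with total-count scaling; without single libraries it ranged from 0.042 (without KO 2) to 0.087 (without KO 3). With the replicate block, no member was called, 92 genes were, and the median stayed at 0.06. Same-numbered libraries had correlations of -0.026, -0.012 and -0.13 of their deviations, and differently numbered ones from -0.17 to 0.18. With 3 libraries per group, these values cannot tell whether the numbers pair libraries. The members' share of counts was 3.03% (WT-labelled) and 3.06% (KO-labelled) without S100a8 and S100a9 in the total, 2.504% and 2.472% with pseudogene symbols, and 2.64% and 2.60% with copies. Of 496 alternatives for 31 single members, 465 kept direction and side of the threshold, and 28 turned the sign. No turned value was past the threshold in the main edgeR test or in the alternative that turned it. In the other 3, a member not called in the main edgeR test passed the threshold. Total-count scaling gave Rps29 -0.049, Rpl37 -0.0042, Rpl41 -0.049, Rpsa -0.062, Rpl7l1 -0.086, Rpl39 -0.10 and Rps27 -0.011. Upper-quartile factors gave Rpl7l1 -0.0090 and Rpl39 -0.020, and the filter of 5 CPM gave -0.0057 and -0.017. With copies added, chosen after seeing the data, Rpl23a was 0.12, Rpl10 0.0071 and Rpl12 -0.14. Without single libraries Rpl7l1 ranged from -0.10 to 0.16, Rpl39 from -0.11 to 0.12, Rpl10 from -0.64 to 0.065, Rpl22 from -0.068 to 0.070, Rpl36al from -0.17 to 0.069 and Rps4x from -0.066 to 0.046. The causes were not tested. The widest intervals were those of Rpl10, Rpl12, Rpl35 and Rpl3l; with copies added, at the same depth, the SE fell from 0.39 to 0.07 for Rpl10 and from 0.22 to 0.08 for Rpl35.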
